A study of Homo sapiens with 12 samples.

Results

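The genes described here encode the DNA damage checkpoint and the machinery that repairs strand breaks. They were taken from a list of 46 genes, each read from a probe set whose annotation names that gene only, and where a gene had several such probe sets the one with the highest mean over the 12 arrays was used. By this rule 43 of the 46 genes were measured, of 11963 genes on the array. RBBP8, which starts the trimming of broken ends, BRCA2, a mediator of recombination, and FANCA, a scaffold of the Fanconi anemia core complex, had no probe set of their own and carry no value here. Of the measured genes, 22 had 1 probe set and 21 had several.

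RKO is an established human colorectal adenocarcinoma line. Its cells were treated for 24 h in 4 groups with 3 arrays each: control cells, cells given thymoquinone (TQ, a quinone from black cumin) at 20 µM, cells given 5-fluorouracil (5-FU, a pyrimidine analogue that starves cells of thymidylate and enters RNA and DNA) at 10 µg/mL, about 76.8 µM, and cells given both drugs at these doses. The record calls the control cells untreated, whereas the methods name DMSO, so that in the comparisons with control a solvent effect cannot be told apart from a drug effect. Each array gave a log2 signal per probe set, normalized by the authors with robust multi-array averaging (RMA), and the array medians ranged from 6.33 to 6.55. Of the epithelial markers checked, KRT18 read up to 12.16 and EPCAM up to 9.07 in the control arrays, whereas KRT19, CDH1 and VIL1 lay between 3.47 and 3.91, and the values hold no detection call.

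When a chromosome breaks, the MRN complex (MRE11, RAD50 and NBN) binds the ends and calls the kinase ATM, while single-stranded DNA at stalled forks calls ATR through the 9-1-1 clamp. Both kinases act through CHEK1 and CHEK2, which hold the cell cycle until the break is repaired, either by end joining (XRCC5, XRCC6, PRKDC, XRCC4 and LIG4) or by recombination with the sister copy (BRCA1, PALB2, RAD51C, XRCC2 and XRCC3). Nicks are sensed by PARP1 and sealed by LIG3 with XRCC1 as the scaffold, whereas crosslinks need the Fanconi anemia core complex and the ERCC nucleases. 5-FU is known for loading DNA with uracil, whose removal leaves nicks, and for stalling forks.

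Differences were tested with limma on all 12 arrays (two-sided, adjusted by Benjamini-Hochberg over 22215 probe sets) and read at an adjusted p under 0.05, and "rose" or "fell" is used of genes that passed. Mean correlation with the other arrays of the group was lowest in 5-FU replicate 3, at 0.911, where replicates 1 and 2 had 0.952 and 0.957. In the TQ+5-FU group it was lowest in replicate 2, at 0.978, where replicates 1 and 3 had 0.984 and 0.990. The control and TQ arrays had 0.997 to 0.998. TQ+5-FU replicate 2 thus stood apart less, and above every 5-FU array by this measure. 5-FU replicate 3 and TQ+5-FU replicate 2 are called the displaced arrays below. Relative to the control mean, the median of the 43 genes lay at -0.83 in 5-FU replicate 3 and at -0.39 in TQ+5-FU replicate 2, against a range of -0.07 to 0.25 in the other arrays, while the median of all genes on those 2 arrays lay at 0.37 and 0.12. Counts are therefore also given from a fit of the 10 other arrays, as are the values of genes whose call or sign differs there. The methods speak of biological replicates for the study in general, and nothing in the labels tells whether those of the arrays were grown as separate cultures, so a p-value here reflects only how much these arrays vary, which may be technical. These are bulk samples, in which fewer cells with a transcript and less of it per cell cannot be told apart.

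RAD51C, LIG3, FANCF, MDC1 and HUS1 are the genes that passed in a comparison with control. The 250 bases before the gene start are shown for those with an entry in the RefSeq promoter table (GRCh38.p14), as these are the genes the results turn on, and HUS1 has none. The strand is that of the gene, the run ends at the base before the start, and capitals mark CCAAT boxes on either strand. RAD51C lies on chromosome 17 (+ strand, 58692323 to 58692572, the first of its listed starts), LIG3 on chromosome 17 (+ strand, 34980262 to 34980511), FANCF on chromosome 11 (- strand, 22625824 to 22626073) and MDC1 on chromosome 6 (- strand, 30717282 to 30717531).
RAD51C: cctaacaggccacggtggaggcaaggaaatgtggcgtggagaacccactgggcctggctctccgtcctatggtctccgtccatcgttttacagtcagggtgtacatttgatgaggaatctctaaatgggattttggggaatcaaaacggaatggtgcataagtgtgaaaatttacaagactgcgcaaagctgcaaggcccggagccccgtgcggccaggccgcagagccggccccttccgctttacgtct
LIG3: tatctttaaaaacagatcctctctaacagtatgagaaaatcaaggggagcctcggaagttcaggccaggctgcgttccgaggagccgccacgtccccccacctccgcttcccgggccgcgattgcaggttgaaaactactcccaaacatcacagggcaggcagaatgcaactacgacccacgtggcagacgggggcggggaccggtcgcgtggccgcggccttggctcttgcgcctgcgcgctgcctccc
FANCF: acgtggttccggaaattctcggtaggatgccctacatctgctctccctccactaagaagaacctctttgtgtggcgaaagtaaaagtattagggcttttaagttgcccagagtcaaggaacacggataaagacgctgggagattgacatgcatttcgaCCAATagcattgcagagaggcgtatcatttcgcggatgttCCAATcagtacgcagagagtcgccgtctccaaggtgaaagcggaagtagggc
MDC1: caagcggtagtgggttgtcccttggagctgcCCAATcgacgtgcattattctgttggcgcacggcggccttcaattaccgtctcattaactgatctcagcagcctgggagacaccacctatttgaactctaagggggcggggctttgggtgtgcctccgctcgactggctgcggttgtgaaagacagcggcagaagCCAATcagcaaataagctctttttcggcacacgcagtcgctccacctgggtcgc
CCAAT, the box bound by NF-Y, was found in the windows of FANCF (52 and 92 bases before the start) and MDC1 (54 and 219 bases before it), and no match was present in those of RAD51C and LIG3. The E2F motifs TTTGGCGC and TTTCCCGC, which do not overlap CCAAT, had no match in these 4 windows. Among the 38 measured genes with an entry, 19 had a CCAAT and 1 an E2F motif in at least 1 of their windows, whereas 37.0% of all genes with an entry had a CCAAT and 2.36% an E2F motif.

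Whether the 4 groups differed at all was tested first with limma's moderated F. HUS1, RAD51C, LIG3 and ERCC1 passed, 4 of 43 genes (9.30%), beside 8.19% of all genes. In the fit of the 10 other arrays 32 of 43 passed (74.4%), beside 44.9% of all genes. The pooled SD within groups, which sets what can pass, had a median of 0.377 over the 43 genes and 0.266 over all genes, and without the displaced arrays these were 0.147 and 0.121.

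**Figure D1:**
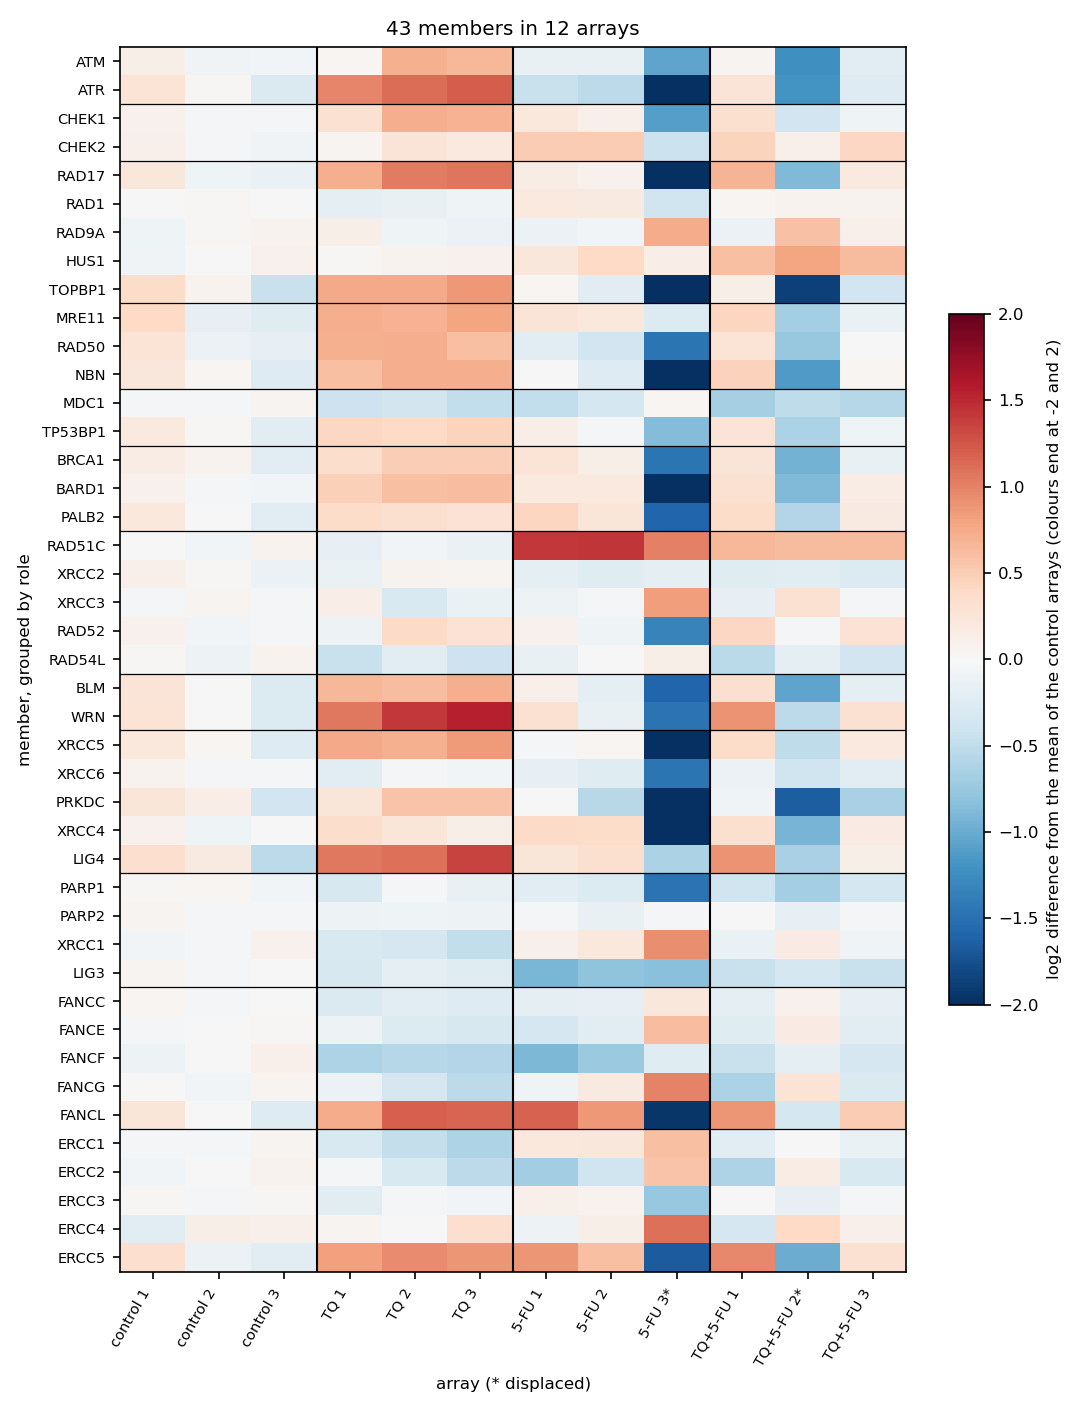
Log2 difference of each of the 43 genes (rows, grouped by role) from the mean of the control arrays, in each of the 12 arrays (columns); red is higher, blue lower, and colours end at -2 and 2. The displaced arrays, marked with a star, are the columns with most of the deep blue, and the TQ arrays hold most of the red.

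With 5-FU, RAD51C rose and LIG3 and FANCF fell. The count was 1 of 43 genes higher (2.33%, beside 4.32% of all genes) and 2 lower (4.65%, beside 2.97%), so that the share of called genes was near the background in both directions. With those 10 arrays 6 were higher (14.0%, beside 14.9% of all genes) and 5 lower (11.6%, beside 13.4%). The median change of the 43 genes was -0.25 with all arrays, where that of all genes was 0.09, and 0.01 without the displaced arrays, where that of all genes was -0.01.

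RAD51C encodes a protein of repair by recombination. Its log2 signals were 9.22, 9.18 and 9.30 in the control arrays, 9.07, 9.17 and 9.10 in the TQ arrays, 10.64, 10.66 and 10.24 in the 5-FU arrays and 9.89, 9.86 and 9.87 in those given both drugs. All 5-FU arrays lay above all others, the arrays with both drugs lay between them and the control arrays, and the TQ arrays lay below the lowest control value. The rise with 5-FU was 1.28 on the log2 scale (SE 0.12, 2.43-fold, adjusted p = 2.61e-04, limma) and 1.42 without the displaced arrays. RAD51C was the gene with the largest change of those that passed in any comparison, and the only one to exceed 2-fold with all 12 arrays. Its other probe set read 0.85 with 5-FU (adjusted p = 0.407, limma), and 1.60 without the displaced arrays (adjusted p = 2.04e-06).

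LIG3 encodes the ligase that seals nicks as the partner of XRCC1. Signals of LIG3 were 8.54, 8.46 and 8.47 in the control arrays, 8.18, 8.30 and 8.25 in the TQ arrays, 7.58, 7.69 and 7.66 in the 5-FU arrays and 8.04, 8.14 and 8.04 in those given both drugs. The groups did not overlap, and the order from high to low was control, TQ, both drugs and 5-FU. It fell with 5-FU by 0.85 on the log2 scale (SE 0.091, adjusted p = 4.81e-04, limma), and here the displaced array lay between its replicates. The other LIG3 probe set fell as well, by 0.82 (adjusted p = 0.00297).

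FANCF encodes an adaptor of the Fanconi anemia core complex. It read 8.73, 8.83 and 8.93 in the control arrays, 8.21, 8.27 and 8.25 in the TQ arrays, 7.94, 8.09 and 8.60 in the 5-FU arrays and 8.38, 8.65 and 8.49 in those given both drugs. Every treated array lay below every control array, and within the 5-FU and the combined group the displaced array was the highest. The fall with 5-FU was by 0.62 (SE 0.16, adjusted p = 0.0459, limma) and by 0.82 without the displaced arrays, and the smallest exact two-sided p for 3 arrays against 3 is 0.1.

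**Figure D2:**
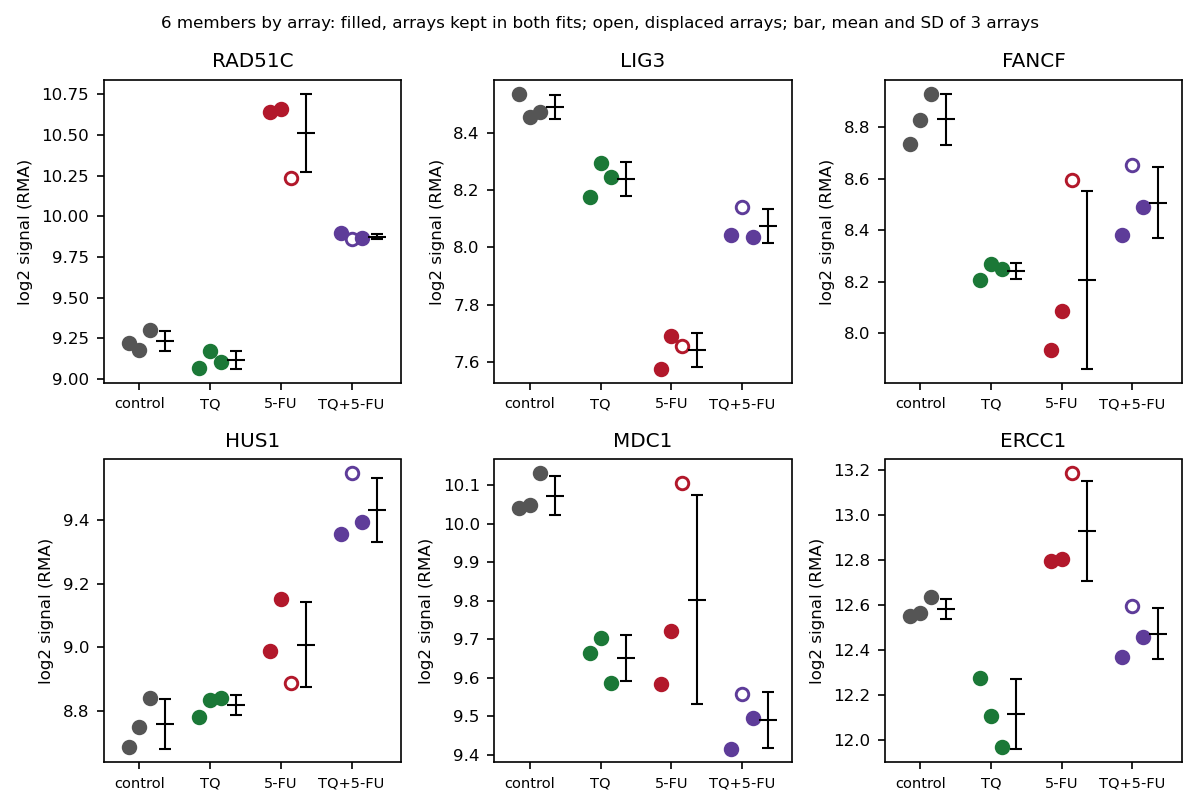
Log2 RMA signal of the 6 genes that passed in a comparison with control or in the F test, in each array; filled points are arrays kept in both fits, open points the displaced arrays, and bars the mean and SD of 3 arrays. LIG3 groups do not overlap, RAD51C is highest with 5-FU and HUS1 highest with both drugs.

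The genes that passed with 5-FU only without the displaced arrays were CHEK2, HUS1, XRCC4, FANCL and ERCC5, which were higher, and MDC1, FANCE and ERCC2, which were lower. CHEK2, the kinase downstream of ATM, read 9.12, 9.01 and 8.95 in the control arrays, 9.08, 9.28 and 9.22 in the TQ arrays, 9.53, 9.54 and 8.60 in the 5-FU arrays and 9.47, 9.13 and 9.43 in those given both drugs. Its change with 5-FU was 0.20 (adjusted p = 0.65) with all arrays and 0.51 (adjusted p = 0.00154) with 10. FANCL, the ubiquitin ligase of the core complex, went from 0.04 to 1.03, and 5-FU replicate 3 read 5.47 where its replicates read 8.59 and 8.27. For ERCC5, an excision nuclease, the change was -0.06 with 12 arrays and 0.74 with 10. XRCC4, which steadies the ligase LIG4, turned from -0.62 to 0.37, and FANCE, a core complex subunit, from 0.02 to -0.27. For these 3 genes the sign with 5-FU depended on a single array.

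MDC1, which binds marked chromatin at a break, read 10.04, 10.05 and 10.13 in the control arrays and 9.58, 9.72 and 10.11 with 5-FU, where the displaced array alone overlapped the controls. The difference was -0.27 (adjusted p = 0.319) with 12 arrays and -0.42 (adjusted p = 0.00314) with 10. ERCC2, a helicase of the transcription factor TFIIH, changed by -0.17 and by -0.54 in the 2 fits.

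On the probe set used, the genes that did not pass with 5-FU in either fit included ATM, ATR, CHEK1, RAD17, BRCA1, BARD1, PALB2, BLM, WRN, XRCC5, XRCC6, PRKDC and PARP1. A dimmer PRKDC probe set did fall, by 0.74 (adjusted p = 0.0265) with 12 arrays and by 0.92 (adjusted p = 3.61e-04) with 10. ATR, the kinase of stalled forks, had the most negative value, -1.13 with 12 arrays (SE 0.50, adjusted p = 0.26) and -0.48 with 10 (adjusted p = 0.0626), where its other probe set passed at -0.53 (adjusted p = 0.0381). CHEK1, the kinase downstream of ATR, read 8.03, 7.90 and 7.90 in the control arrays, 8.25, 8.67 and 8.63 in the TQ arrays, 8.15, 8.05 and 6.84 in the 5-FU arrays and 8.26, 7.56 and 7.85 in those given both drugs, and with 5-FU only the displaced array lay below the controls. PARP1, the sensor of nicks, read 10.15, 10.16 and 10.08 in the control arrays, 9.80, 10.09 and 9.98 in the TQ arrays, 9.90, 9.86 and 8.65 in the 5-FU arrays and 9.73, 9.45 and 9.77 in those given both drugs. All 5-FU arrays and all arrays with both drugs lay below all PARP1 controls, and the change with 5-FU was -0.66 (adjusted p = 0.24) with 12 arrays and -0.25 (adjusted p = 0.072) with 10.

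With TQ alone, none of the 43 genes passed in limma on all 12 arrays, beside 0.15% of all genes higher and 0.117% lower. At an unadjusted p under 0.05 there were 4 higher (beside 3.37% of all genes) and 5 lower (beside 6.3%). Without the displaced arrays, none of which is a TQ or a control array, 18 were higher (41.9%, beside 15.1% of all genes) and 7 lower (16.3%, beside 17.3%). The fold changes are the same in the 2 fits, and only the estimate of the spread differs: the SE of RAD17 went from 0.72 to 0.14. A fit of the 6 TQ and control arrays alone called 25 genes, 24 of them among those 25. The t-test, which the methods name for the volcano plots, was read here at a Benjamini-Hochberg adjusted p under 0.05. It called 13, all of them among the 25, and the methods' ANOVA with Tukey's HSD called 2. The share of all genes called is not at hand for these other fits. The median change with TQ was 0.17 over the 43 genes and -0.09 over all genes.

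Both apical kinases were among the 18. ATR read 6.88, 6.64 and 6.32 in the control arrays and 7.59, 7.73 and 7.82 with TQ, a gap with no overlap, and its change was 1.11 (adjusted p = 0.513 with 12 arrays and 7.95e-04 with 10). ATM, the kinase of double-strand breaks, read 6.13, 5.94 and 5.96 in the control arrays, 6.06, 6.72 and 6.67 in the TQ arrays, 5.87, 5.86 and 4.95 in the 5-FU arrays and 6.07, 4.78 and 5.79 in those given both drugs. TQ replicate 1 lay within the ATM control values, and the change was 0.47 (adjusted p = 0.0437 with 10 arrays).

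Of the effector kinases, CHEK1 was higher with TQ by 0.58 (adjusted p = 0.00737 with 10 arrays), every TQ array above every control, while CHEK2 did not pass (0.17, adjusted p = 0.133). RAD17, which loads the 9-1-1 clamp, read 7.69, 7.36 and 7.31 in the control arrays, 8.18, 8.49 and 8.53 in the TQ arrays, 7.60, 7.54 and 4.47 in the 5-FU arrays and 8.13, 6.57 and 7.65 in those given both drugs. All its TQ arrays lay above all its controls, by 0.95 on average (adjusted p = 0.727 with 12 arrays and 0.00115 with 10), and 5-FU replicate 3 lay about 3 log2 units below its replicates. TOPBP1, the activator of ATR, was 0.80 higher (adjusted p = 0.00907 with 10 arrays). The clamp subunits RAD1, RAD9A and HUS1 did not pass with TQ in either fit, with changes of -0.14, -0.03 and 0.06.

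All 3 measured MRN subunits were higher with TQ in the fit of 10 arrays on the probe sets used. MRE11, the nuclease, read 5.76, 5.19 and 5.12 in the control arrays, 6.08, 6.05 and 6.15 in the TQ arrays, 5.62, 5.57 and 5.09 in the 5-FU arrays and 5.78, 4.67 and 5.22 in those given both drugs. Its TQ arrays lay above every control array, with a change of 0.74 (adjusted p = 0.381 with 12 arrays and 0.00885 with 10). The other MRE11 probe set, which is dimmer, gave -0.07 and did not pass (adjusted p = 0.631 with 10 arrays). NBN, which brings in ATM, and RAD50, which bridges the ends, changed by 0.69 and 0.68, and each of their other probe sets was higher in that fit too.

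TP53BP1, which steers breaks towards end joining, read 8.25, 8.08 and 7.82 in the control arrays, 8.47, 8.46 and 8.49 in the TQ arrays, 8.18, 8.03 and 7.18 in the 5-FU arrays and 8.31, 7.41 and 7.97 in those given both drugs, and was 0.42 higher with TQ (adjusted p = 0.0214 with 10 arrays). MDC1, the other chromatin mediator, read 9.66, 9.70 and 9.59 with TQ, all below its lowest control value, and was lower by 0.42 (adjusted p = 0.273 with 12 arrays and 0.0021 with 10). BRCA1, which promotes recombination, read 7.74, 7.67 and 7.38 in the control arrays, 7.95, 8.09 and 8.10 in the TQ arrays, 7.87, 7.72 and 6.14 in the 5-FU arrays and 7.86, 6.66 and 7.46 in those given both drugs. Its change with TQ was 0.45 (adjusted p = 0.0192 with 10 arrays). The partners of BRCA1, BARD1 and PALB2, changed by 0.57 and 0.33 and passed in that fit too.

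RecQ helicases unwind repair intermediates, and WRN showed the largest change with TQ of the 43 genes. It read 6.26, 5.999 and 5.72 in the control arrays, 7.05, 7.41 and 7.55 in the TQ arrays, 6.30, 5.85 and 4.51 in the 5-FU arrays and 6.89, 5.46 and 6.30 in those given both drugs. The TQ arrays lay above every control array, by 1.34 on average (2.53-fold, adjusted p = 0.312 with 12 arrays and 9.53e-04 with 10). BLM, its relative, read 7.15, 6.90 and 6.61 in the control arrays, 7.55, 7.50 and 7.61 in the TQ arrays, 6.98, 6.70 and 5.29 in the 5-FU arrays and 7.21, 5.84 and 6.69 in those given both drugs and was 0.67 higher with TQ (adjusted p = 0.00885 with 10 arrays).

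Within the end joining group, XRCC5, the larger Ku subunit, read 10.96, 10.79 and 10.49 in the control arrays, 11.51, 11.46 and 11.59 in the TQ arrays, 10.72, 10.79 and 8.02 in the 5-FU arrays and 11.11, 10.24 and 10.94 in those given both drugs. It was 0.78 higher with TQ (adjusted p = 9.20e-04 with 10 arrays), whereas XRCC6, its partner in the Ku ring, gave -0.10 (adjusted p = 0.344). LIG4, the ligase of this pathway, read 6.31, 6.16 and 5.44 in the control arrays and 7.02, 7.07 and 7.32 with TQ, a change of 1.17 (adjusted p = 0.00374 with 10 arrays). PRKDC, the catalytic subunit of DNA-PK, read 10.54, 10.44 and 9.92 in the control arrays, 10.55, 10.87 and 10.87 in the TQ arrays, 10.30, 9.74 and 7.79 in the 5-FU arrays and 10.23, 8.66 and 9.65 in those given both drugs, and it and XRCC4 did not pass with TQ in either fit on the probe sets used (0.46 and 0.24). The other XRCC4 probe sets, 3 in number, all passed as higher with 10 arrays, at 0.35, 0.54 and 0.42, and of the other PRKDC probe sets 1 passed as lower, at -0.42 (adjusted p = 0.0196).

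The genes that were lower with TQ in the fit of 10 arrays were XRCC1, the scaffold of nick repair, LIG3, the nick ligase, FANCF and FANCC of the core complex, ERCC1, which anchors the crosslink nuclease, RAD54L, a motor of strand exchange, and MDC1. FANCF had the largest of these falls, by 0.59 (adjusted p = 0.201 with 12 arrays and 7.15e-04 with 10). RAD54L read 9.09, 8.97 and 9.13 in the control arrays, 8.62, 8.84 and 8.65 in the TQ arrays, 8.91, 9.05 and 9.19 in the 5-FU arrays and 8.53, 8.87 and 8.68 in those given both drugs, so that TQ and combined arrays lay below all controls, with a change with TQ of -0.36 (adjusted p = 0.0116 with 10 arrays). FANCL of the core complex and the nuclease ERCC5, at 1.04 and 0.89, passed as higher. PARP1, PARP2, FANCE, FANCG, ERCC2, ERCC3, ERCC4, RAD52, XRCC2, XRCC3 and RAD51C did not pass with TQ in either fit, with changes between -0.33 and 0.19. The other RAD51C probe set, however, read 0.76 with TQ (adjusted p = 4.20e-04 with 10 arrays), against -0.12 on the probe set used. Of the 25 genes that passed with TQ in that fit, 12 had 1 probe set, 9 passed in the same direction on every other probe set, and ATM, TP53BP1, LIG3 and MRE11 passed on no other.

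**Figure D3:**
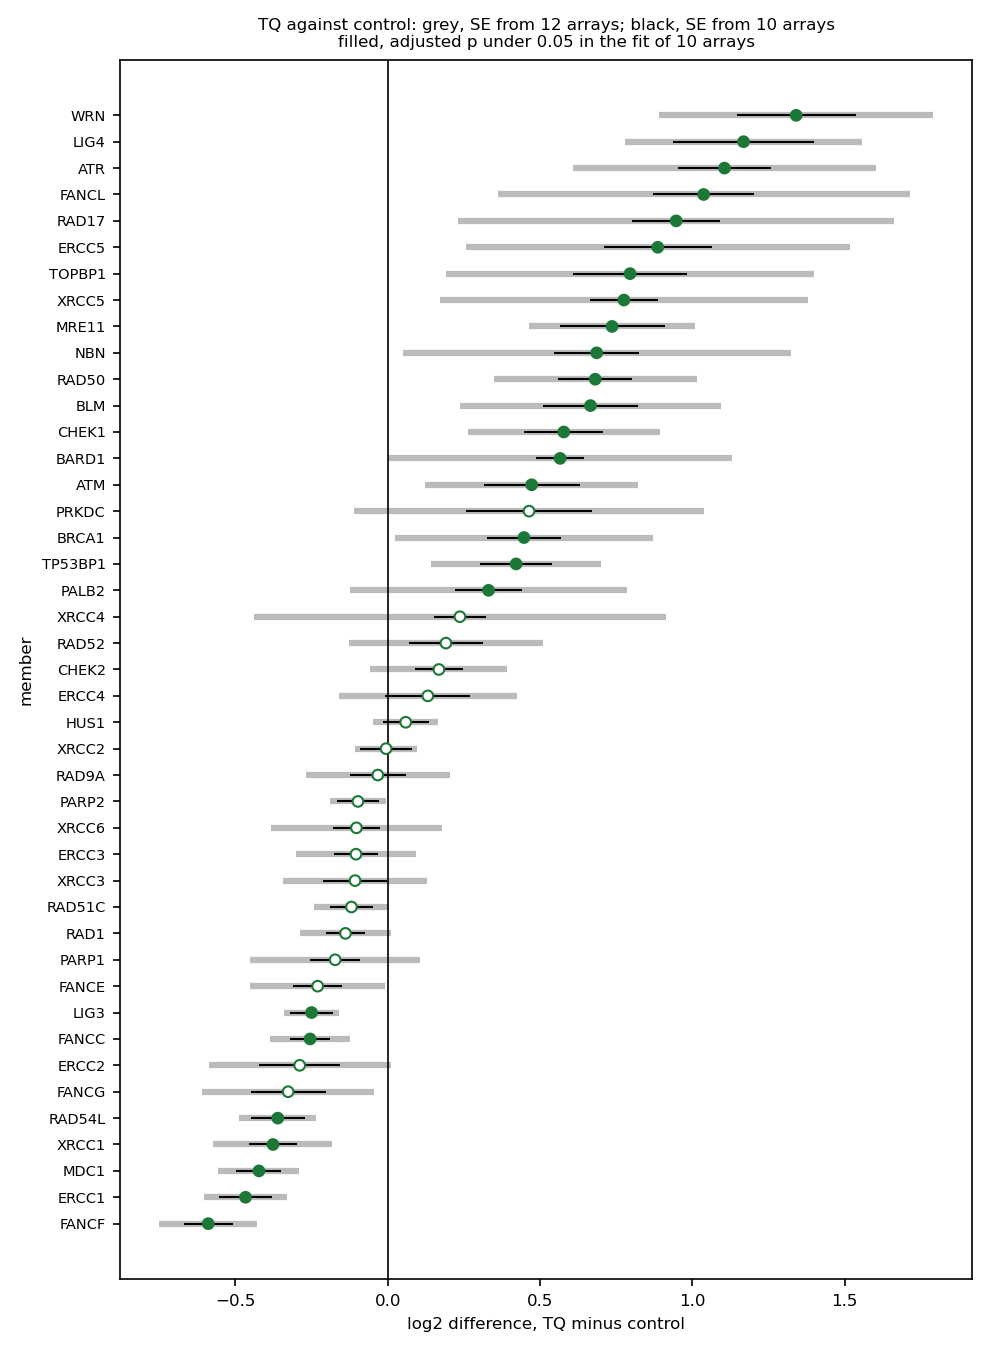
Difference of TQ from control on the log2 scale for each of the 43 genes, ordered by size, with the SE from all 12 arrays in grey and from the 10 arrays without the displaced ones in black. WRN, LIG4, ATR and FANCL lie above 1, FANCF lies lowest at -0.59, and filled points passed in the fit of 10 arrays.

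The genes that were higher with TQ were low in the displaced arrays, and so were some that did not pass with TQ, such as XRCC6, PARP1 and ERCC3. All 18 lay below their own group in both displaced arrays, with offsets from -0.51 (MRE11) to -3.10 (RAD17) in 5-FU replicate 3 and from -0.50 (CHEK1) to -1.73 (TOPBP1) in TQ+5-FU replicate 2. Of the 43 genes, 26 lay below in both (60.5%, beside 28% of all genes), so that such offsets were not confined to the 18. All 7 genes that were lower with TQ lay above their own group in both. Lying above was the more common state over all 11963 genes. Of these, 3890 lay below their group in 5-FU replicate 3 and 3930 in TQ+5-FU replicate 2. Across the 43 genes the TQ change and the offset of the displaced array correlated at r = -0.75 for 5-FU replicate 3 and r = -0.853 for TQ+5-FU replicate 2, with no array shared between the 2 measures. The same r over all 11963 genes were -0.702 and -0.742, so that the relation was not particular to DNA repair. Genes are not independent points, and all of them share the same few arrays. What moves the TQ arrays and the displaced arrays in opposite directions was not tested.

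**Figure D4:**
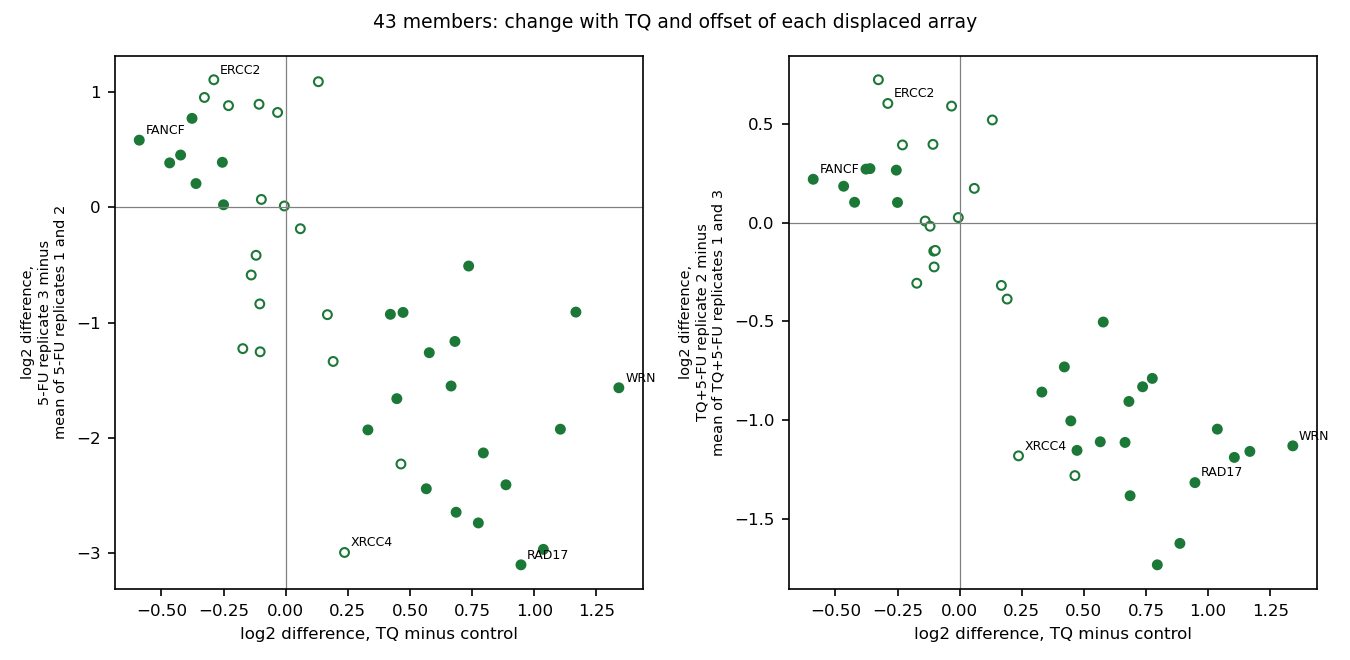
Each point is 1 of the 43 genes, with its log2 difference between TQ and control on the horizontal axis and, on the vertical axis, the log2 difference of a displaced array from the mean of the other arrays of its group (left 5-FU replicate 3, right TQ+5-FU replicate 2). Filled genes passed with TQ in the fit of 10 arrays, and they lie in the lower right and upper left of both panels.

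In 5-FU replicate 3, 19 of the 43 genes (44.2%) lay more than 1 log2 unit below the average of its 5-FU replicates, beside 18.9% of all genes. For TQ+5-FU replicate 2 the count was 14 (32.6%), beside 8.28%. RAD17, XRCC4, FANCL, XRCC5 and NBN had the deepest offsets in 5-FU replicate 3, from -3.10 to -2.64, while ERCC2 and ERCC4, a subunit of the crosslink nuclease, lay above it by 1.11 and 1.09. The 3'-to-5' difference of the GAPDH control probe sets was 0.06 in 5-FU replicate 3 and 0.13 in TQ+5-FU replicate 2, with 0.05 to 0.09 in the other arrays, and that of ACTB was 0.557 and 0.886, with 0.573 to 0.957 in the others. The summed level of the 7 leukocyte markers was 8.21 and 7.85 in the displaced arrays on the log2 scale, with 7.35 to 7.56 in the others, and that of the 8 fibroblast markers 9.47 and 9.03, with 8.59 to 8.97. The summed level of 8 epithelial markers was 12.98 and 12.72 in the displaced arrays, with 12.22 to 12.71 in the others. All 3 marker sums were thus highest in the displaced arrays, and the rise was not particular to leukocyte or fibroblast markers. None of the 15 leukocyte and fibroblast markers passed in a comparison in either fit, whereas some epithelial markers did. The part of any of these markers in the offsets was not tested.

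With both drugs against control, HUS1 and RAD51C rose and LIG3 and MDC1 fell. That is 2 of 43 genes higher (4.65%, beside 1.78% of all genes) and 2 lower (4.65%, beside 0.853%). In the fit of 10 arrays 5 were higher (11.6%, beside 12.7%) and 6 lower (14.0%, beside 10%).

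HUS1 is the clamp subunit that completes the 9-1-1 ring. Its signals were 8.68, 8.75 and 8.84 in the control arrays, 8.78, 8.83 and 8.84 in the TQ arrays, 8.99, 9.15 and 8.89 in the 5-FU arrays and 9.36, 9.55 and 9.39 in those given both drugs. The arrays with both drugs lay above all others, and the displaced one was the highest of them. HUS1 rose by 0.68 against control (SE 0.11, adjusted p = 0.00853, limma) and by 0.62 against TQ (adjusted p = 0.0277), and without the displaced arrays by 0.62 and 0.56 (adjusted p = 6.49e-04 and 0.0028). Its other probe sets, 2 in number, read 0.31 and 0.09 with both drugs and did not pass, and with 5-FU alone they read -0.26 and -0.37, where the probe set used read 0.25. Against 5-FU, on the other hand, 1 of them passed at 0.57 (adjusted p = 0.0384), where the probe set used read 0.42 (adjusted p = 0.128).

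MDC1 read 9.42, 9.56 and 9.50 with both drugs, each below the lowest control value of 10.04. It fell by 0.58 (SE 0.13, adjusted p = 0.0494, limma), and its other probe set read -0.43 (adjusted p = 0.410). LIG3 fell by 0.42 (adjusted p = 0.0415), a change between those of TQ and 5-FU alone. The other LIG3 probe set did not pass with 12 arrays and passed as lower with 10. RAD51C rose by 0.64 (SE 0.12, adjusted p = 0.0231), where the other probe set read 1.01 (adjusted p = 0.527 with 12 arrays and 2.67e-05 with 10).

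Passing only without the displaced arrays, CHEK2, FANCL and ERCC5 were higher with both drugs, at 0.42, 0.69 and 0.63 (from 0.32, 0.34 and 0.09 with 12 arrays). RAD54L, PARP1, FANCF and FANCG, a core complex subunit, were lower, at -0.46, -0.38, -0.40 and -0.46 (from -0.37, -0.48, -0.32 and -0.22). ATM, ATR, BRCA1 and the MRN subunits were not among them, with values between -0.08 and 0.25 in the fit of 10 arrays.

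Against 5-FU alone, the addition of TQ lowered RAD51C and no other of the 43 genes passed. This is 1 lower (2.33%, beside 0.368% of all genes) and 0 higher (beside 0.435%), where 2 were higher (beside 4.75% of all genes) and 4 lower (beside 5.48%) at an unadjusted p under 0.05. RAD51C fell by 0.64 (SE 0.12, adjusted p = 0.05, at the threshold) and by 0.77 without the displaced arrays (adjusted p = 6.48e-04). Its other probe set read 0.16 with 12 arrays and -0.40 with 10 (adjusted p = 0.890 and 0.0512) and did not pass. Without the displaced arrays 2 genes were higher (4.65%, beside 3.67%) and 1 lower (2.33%, beside 3.24%): LIG3 by 0.41 and FANCF by 0.42 were the higher ones. RAD51C, LIG3 and FANCF departed less from control with both drugs than with 5-FU. The interaction, given below, asks a different question, as it also subtracts the change with TQ alone.

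Against TQ alone, the addition of 5-FU raised HUS1 and RAD51C, 2 of 43 genes (4.65%, beside 1.05% of all genes), and none passed as lower (beside 0.1%), with 3 higher (beside 9.38%) and 9 lower (beside 3.35%) at an unadjusted p under 0.05 in limma. RAD51C rose by 0.76 (adjusted p = 0.0196). With all arrays, no other probe set of HUS1 or RAD51C passed against TQ. Of the 2 others for HUS1, 1 had the opposite sign. In the fit of 10 arrays the other RAD51C probe set passed as higher, and those of HUS1 did not pass. In that fit 2 of the 43 genes were higher (4.65%, beside 8.55%) and 7 lower (16.3%, beside 4.2%). The lower ones were ATR, TOPBP1, RAD50, BARD1, BLM, XRCC5 and PRKDC. ATR had the largest of these falls, by 1.11 (adjusted p = 0.00314). All of these 7 genes but PRKDC were among those higher with TQ alone, and the 2 comparisons share the TQ arrays.

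The interaction, in which the changes with TQ and with 5-FU are subtracted from the change with both, is 0 where the log2 changes of the drugs add up. In limma on all arrays none of the 43 genes passed, higher (beside 0.125% of all genes) or lower (beside 0.0418%), with 3 higher (beside 4.51%) and 2 lower (beside 1.8%) at an unadjusted p under 0.05. LIG3 came closest, at 0.68 (SE 0.13, adjusted p = 0.0989): its TQ change of -0.25 and 5-FU change of -0.85 exceed in sum the -0.42 measured with both. Without the displaced arrays 2 passed as higher (4.65%, beside 5.88%) and 4 as lower (9.30%, beside 5.21%), where 11.1% of all genes passed in either direction. The higher ones were LIG3 and FANCF and the lower ones RAD51C, BARD1, FANCL and ERCC5, and in each the value with both drugs lay nearer to control than the sum of the single drugs.

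ERCC1 passed the F test (adjusted p = 0.0221) without passing against control with either drug alone on all 12 arrays. It read 12.55, 12.56 and 12.63 in the control arrays, 12.28, 12.10 and 11.97 in the TQ arrays, 12.79, 12.80 and 13.19 in the 5-FU arrays and 12.37, 12.59 and 12.45 in those given both drugs. All 5-FU arrays lay above all controls and all TQ arrays below them, so that the widest gap was between the single drugs. The difference from control was -0.47 with TQ (adjusted p = 0.223 with 12 arrays and 0.00276 with 10), 0.35 with 5-FU (adjusted p = 0.196, and 0.22 with 0.135 in the fit of 10 arrays) and -0.11 with both. Its other probe set read -0.45 and 0.61 with the single drugs, the same signs.

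Of 72 other genes of the same pathways, 58 were measured. With 5-FU, 3 rose (5.17%, beside 4.32% of all genes) and 2 fell (3.45%, beside 2.97%), and without the displaced arrays 20 were higher (34.5%, beside 14.9%) and 7 lower (12.1%, beside 13.4%). Those that rose with all arrays were DDB2, the UV damage sensor, by 2.60 (adjusted p = 2.17e-06), PPM1D, the phosphatase that switches the checkpoint off, by 1.61, and XPC, the lesion finder of excision repair, by 1.06, and those that fell were TDP1, which frees trapped topoisomerase, at -0.80 and XPA, an excision scaffold, at -0.64. DDB2 read 8.78, 8.72 and 8.89 in the control arrays and 11.33, 11.30 and 11.56 with 5-FU, and no array of these groups overlapped, the displaced one included. With both drugs DDB2 alone passed, by 1.61, which is 1.72% higher (beside 1.78% of all genes) and 0 lower (beside 0.853%). Without the displaced arrays 14 were higher and 9 lower with both drugs (24.1% and 15.5%, beside 12.7% and 10%). DDB2 was lower with both drugs than with 5-FU by 0.99 (adjusted p = 0.00369). With TQ none passed in limma on all arrays (beside 0.15% of all genes higher and 0.117% lower). At an unadjusted p under 0.05, 3 were higher and 5 lower (5.17% and 8.62%, beside 3.37% and 6.3% of all genes). Without the displaced arrays 27 were higher and 10 lower (46.6% and 17.2%, beside 15.1% and 17.3%).

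Of 16 S phase genes, MCM7, a subunit of the replicative helicase, fell with 5-FU (-0.69, adjusted p = 0.00499) and with both drugs (-0.74, adjusted p = 0.00741), and no other passed in a comparison with all arrays. With all arrays that is 6.25% lower in each of these comparisons, beside 2.97% and 0.853% of all genes. Without the displaced arrays 5 were higher and 4 lower with 5-FU (31.2% and 25.0%, beside 14.9% and 13.4%). With both drugs 2 were higher and 7 lower (12.5% and 43.8%, beside 12.7% and 10%). With TQ 3 were higher and 4 lower (18.8% and 25.0%, beside 15.1% and 17.3%).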

How the data were processed

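RNA of RKO cells was hybridized to Affymetrix human genome arrays, 3 in each of 4 groups. The authors deposited log2 signals after RMA, 1 column for each array, and these were used with no further scaling. The methods name GeneSpring GX for this step and the submitters' processing notes Affymetrix Expression Console. Depth has no meaning for arrays, and the number of arrays limits the precision. The 62 control probe sets were left out.

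One mean per group was fitted to all 12 arrays with limma 3.58.1 in R 4.3.3 (empirical Bayes, default settings), and each comparison was adjusted by Benjamini-Hochberg over 22215 probe sets at a threshold of 0.05. Probe sets were named from GEO's platform annotation: 19064 name 1 gene, 1043 several and 2108 none. Where a gene had several probe sets, the one of highest mean signal stands for it, and its other probe sets are given for the genes the results turn on. The 43 members and all gene lists were chosen with earlier results of these data known, as was the fit without the displaced arrays, and none of them is independent evidence.

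Full values are given for members that passed in any comparison and for a lead gene of each role. Of other pathway genes, the counts and up to 6 with the smallest adjusted p are given. The alternatives were the replicate block, quantile normalization, arrays centred on their median, the 30% dimmest probe sets left out, averaged probe sets, array weights, the groups compared only, the tests of the methods and each array left out in turn. Promoter windows come from RefSeq (GRCh38.p14), where 38 of the 43 members had an entry. The fits were tested on simulated data. Figures were drawn with matplotlib 3.10.9. Some genes are not reported here.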

Additional observations from a re-analysis of the deposited data

Results flagged for a closer look

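Without the displaced arrays, the change with 5-FU differed between cells with and without TQ in 6 of the 43 genes (14.0%, beside 11.1% of all genes), by limma's test of the interaction. The interaction was 1.01 in FANCF (adjusted p = 0.00227), 0.66 in LIG3 (0.00777), -0.65 in RAD51C (0.00741), -1.37 in FANCL (0.0120), -0.53 in BARD1 (0.0256) and -0.99 in ERCC5 (0.0497). With all 12 arrays the same genes gave 0.89, 0.68, -0.52, -0.73, -0.09 and -0.73, and none passed. The signs agree in the 2 fits.

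The other probe set of LIG3 read 0.62 (adjusted p = 0.0227) and that of RAD51C -1.16 (adjusted p = 0.00196) in the fit of 10 arrays. FANCF, FANCL, BARD1 and ERCC5 have 1 probe set each.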

How the results depend on the processing

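The counts of genes that passed moved most with array weights and with the displaced arrays. Leaving both displaced arrays out gave 25 genes for TQ, 11 for 5-FU, 11 for both drugs, 3 for both against 5-FU, 9 for both against TQ, 6 for the interaction and 32 for the F test. Array weights gave 32, 18, 19, 10, 29, 25 and 36 in the same order. The share of all genes is at hand only for the fits of 12 and of 10 arrays. Counts in the other settings therefore have no background and are no result about these genes. Leaving out each array in turn gave 0 to 8 for TQ, 2 to 5 for 5-FU, 0 to 5 for both drugs, 0 to 3 for both against 5-FU, 0 to 12 for both against TQ, 0 to 3 for the interaction and 3 to 14 for the F test, the highest mostly without 5-FU replicate 3. With the replicate block 1 passed for both drugs and 0 for both against 5-FU or against TQ. Of 18 same-number correlations of deviations from the group mean, 6 exceeded 0.1 (range -0.84 to 0.86). With 3 arrays per group and displaced arrays of different numbers, these cannot decide whether the numbers pair the arrays. A fit of the groups compared only gave 25 for TQ, 1 for 5-FU, 0 for both against 5-FU and 1 for both against TQ. The methods' t-test, read at an adjusted p under 0.05, gave 13 for TQ and 1 for 5-FU, and Tukey's HSD 2 for TQ and 4 for both against 5-FU. Quantile normalization gave 2 for both drugs, centred arrays 2 for both drugs, 0 for both against 5-FU and 1 for both against TQ, and averaged probe sets 0 for these 3 comparisons. With 5-FU the sign turned without the displaced arrays and with array weights in ERCC5 (0.74 and 0.73), FANCE (-0.27 and -0.25) and XRCC4 (0.37 and 0.40); the cause was not tested. The calls of LIG3 and RAD51C with 5-FU were kept in all 12 fits that leave out 1 array. Those of FANCF with 5-FU and of LIG3 and MDC1 with both drugs were kept in 1, 1 and 2 of them, that of RAD51C against 5-FU in 1, those of RAD51C with both drugs against control and against TQ in 5 and 6, and those of HUS1 in 10 and 3. Of the 10 settings that do not leave out a single array, the calls of LIG3 and RAD51C with 5-FU were kept in 9 and 8. The call of FANCF with 5-FU was kept in 4 of these settings. With both drugs against control, HUS1 was kept in 9, RAD51C in 8, and LIG3 and MDC1 in 5 each.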
